A study of Mus musculus with 12 samples.

Results

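Gene expression in the dorsal hippocampus was compared between mice labelled Mbnl2 KO and mice labelled Mbnl2 WT, with house control and trained mice pooled. All 12 of the 12 libraries of the study entered, chosen by the genotype in their titles, 6 KO against 6 WT, and treatment was a term of the model. The groups, of 3 libraries each, were KO house control, KO trained, WT house control and WT trained. Every mouse was male, aged 4 to 5 months, on the mixed 129sv/C57BL/6j background, and each library carries its own animal number. The labels describe neither the targeted allele nor the training, and they do not say whether WT and KO mice were littermates. The question put to the counts was which transcripts differed with genotype in the same direction whether or not the mice had been trained.

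Mbnl2 encodes a muscleblind protein, a zinc finger RNA-binding protein that binds short motifs with a GC core in pre-mRNA and in 3′UTRs. Muscleblind proteins promote the adult pattern of alternative splicing and polyadenylation, and they also affect the stability and localisation of some transcripts. Mbnl2 is the member with prominent splicing roles in brain, and its capture by expanded CUG repeats is a feature of myotonic dystrophy. The counts used here are per gene, so a change of splicing that leaves the total unchanged is not visible in them.

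To show what such motifs look like in transcripts that differed here, the 30-base stretch of the 3′UTR with the most matches to any of 4 motifs (the letters TGCT and the letters TGCC, then the letters CGCT and the letters CGCC) was read for Mbnl2, for Cxadr and Anxa6, the called genes with the largest difference in each direction, and for Tomm34, next to Anxa6 by p among the lower genes. Only the transcript strand was searched. Capitals mark the matched letters, which may overlap, and each sequence is given 5′ to 3′ on the gene's own strand from the GENCODE vM21 transcripts on build GRCm38.
Mbnl2, chr14:120429556-120429585, plus strand: agtgtggggttCGCTtTGCCaggagaTGCC
Cxadr, chr16:78337424-78337453, plus strand: ctgTGCCtCGCTcggggcctgtggacTGCT
Anxa6, chr11:54979380-54979409, minus strand: cTGCCGCCgtgacctgaccaagccatTGCT
Tomm34, chr2:164054314-164054343, minus strand: tgcatcTGCCccaaTGCCcagcaTGCCGCC
Such stretches are common. Of 13721 3′UTRs of at least 100 bases, 51.4% held a stretch with 3 or more matches, as in Mbnl2, Cxadr and Anxa6, and 15.7% held one with 4 or more, as in Tomm34. These matches describe the sequence and are not binding sites.

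The libraries held 19737929 to 27427076 counts each, over 17493 to 18300 detected genes. Levels are given in CPM, the usual scaling of counts to library size, where 3 counts are 0.109 to 0.152 CPM. The hippocampal genes Slc17a7, Neurod6 and Hpca and the dentate granule neuron gene Prox1 were detected in all 12 libraries. Transcripts of neighbouring tissue varied between libraries: Ttr, the main choroid plexus transcript, was 23.2 to 4256 CPM in KO libraries and 14.5 to 13365 CPM in WT libraries, and Drd1, a striatal receptor, was 7.77 to 56.5 CPM in KO and 7.15 to 31.7 CPM in WT libraries. Replicate 2 of KO house control and replicate 2 of KO trained stood apart: striatum and septum markers summed to 1419.6 and 1833 CPM there, against 386 to 465 CPM in the other KO libraries, and Adora2a, a striatal receptor, was 56.6 and 76.9 CPM, against 1.74 to 1.97 CPM. Among WT libraries, house control replicate 3 had the highest values, 1275 CPM and 38.1 CPM. In bulk tissue, fewer cells of a type and less RNA per cell cannot be told apart.

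The targeted gene, Mbnl2 (chromosome 14, 120275669 to 120431697), had a higher count in the libraries labelled KO, 454, 481 and 542 CPM in KO libraries, against 315, 349 and 365 CPM in WT libraries, the lowest, median and highest of 6 each, with no overlap (log2 fold change 0.51, SE 0.05, adjusted p = 0.00183, edgeR with Benjamini-Hochberg adjustment). Since the allele is not described and the counts are summed over the whole gene, this value does not check the labels. Of the paralogs, Mbnl1 was at 107 ± 7.29 CPM in KO and 89.6 ± 11.3 CPM in WT libraries with overlapping groups (adjusted p = 0.156). Within trained mice Mbnl1 did not overlap, at 102 to 117 CPM in KO and 81.5 to 86.4 CPM in WT libraries. The authors' deposited comparisons gave Mbnl1 a log2 fold change of 0.38 in trained mice (adjusted p = 0.0110) and 0.14 in house controls (adjusted p = 0.886). In edgeR, Mbnl1 did not pass within trained mice (log2 fold change 0.38, adjusted p = 0.500). Its edgeR interaction test had an unadjusted p of 0.143. Mbnl3 was low, at 0 to 0.731 CPM in KO and 0.0803 to 1.45 CPM in WT libraries (adjusted p = 0.562).

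KO hippocampus had 98 transcripts at a higher level and 40 at a lower level than WT, and most of the differences were small. Cxadr and Anxa6 stood at the ends of the 2 directions, at 4.14-fold higher and 2.12-fold lower. Cxadr, a junction adhesion protein and receptor of coxsackieviruses and adenoviruses, had 75.5, 88.1 and 99.8 CPM in KO libraries, against 17.8, 20.8 and 29.1 CPM in WT libraries (log2 fold change 2.05, SE 0.12, adjusted p = 3.94e-05). The calls beyond them took in a serotonin receptor, ion channels, cyclic nucleotide and small GTPase signalling proteins and glycosyltransferases on the higher side, and on the lower side Tomm34, Gskip, Scrn3, Sdf4 and Prkar1a, which belong to no single family. The calls are those with an adjusted p below 0.05 (Benjamini-Hochberg) in the quasi-likelihood test of edgeR, 0.627% of the 15622 genes tested on the higher side, 0.256% on the lower side and 0.883% in either direction. Their median fold was 1.41 on the higher side and, as WT over KO, 1.31 on the lower side. Only 9 of the 98 and 1 of the 40 passed 2-fold, and 35 and 4 passed 1.5-fold. The smallest called differences were 1.16-fold higher and 1.14-fold lower. The 0.883% called over all genes is the background for every count of called list members below.

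For 80 of the 98 and 37 of the 40, the 6 KO values and the 6 WT values did not overlap. Over all genes tested the same was true of 1.06% on the higher side, 0.717% on the lower side and 1.78% in either direction. The call rests on the same values, so the first counts describe how cleanly the called genes separate and add no second line of evidence. At the threshold itself, Kcnab1 and Tmem109 stood just inside with an adjusted p of 0.0499 each, and Synrg and Tmem255a just outside with 0.0501 each.

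**Figure D1:**
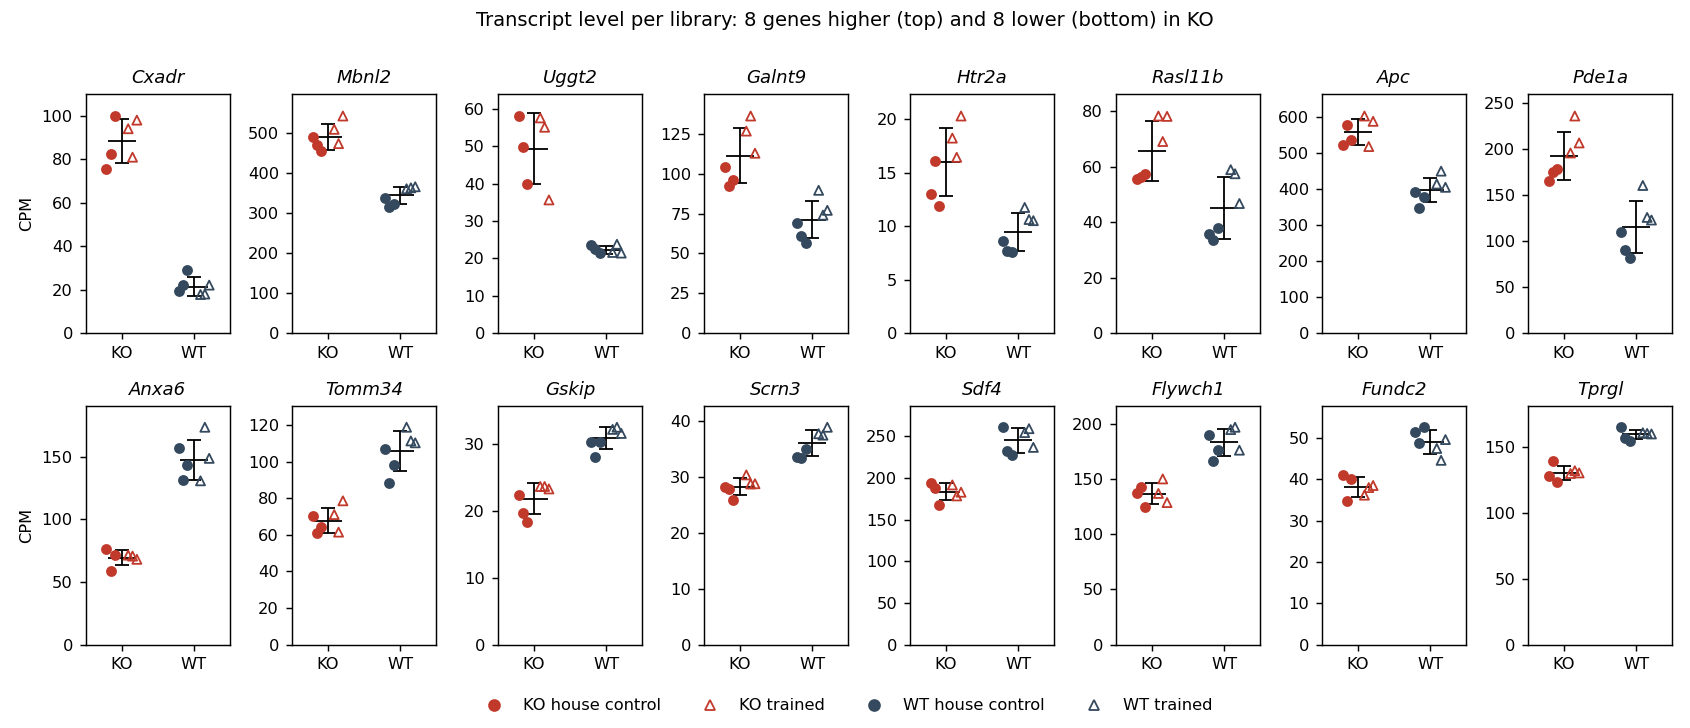
Transcript level (CPM, linear axes from 0) in each KO and each WT library for the 8 genes with the smallest p among those higher in KO (top row) and the 8 among those lower in KO (bottom row). Unnamed genes (Gm or Rik symbols) are left out. Filled circles are house control and open triangles trained mice, and the bars are the mean and SD of 6 libraries. The KO and WT points do not overlap except for Rasl11b, where the trained WT mice reach into the range of the KO house controls.

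The genotype difference had the same sign in house control and in trained mice for all 138 called genes, and each had an unadjusted p below 0.05 within each treatment. A gene called from both treatments together can hardly do otherwise, so the treatments were also fitted apart, on separate sets of 6 libraries that share no mouse. Of 15039 genes tested in both, 65.6% had the same sign in the 2 fits. Among the 1089 genes with p at most 0.05 in house controls, 964 (88.5%) had the same sign in trained mice, and among the 1122 with p at most 0.05 in trained mice, 1034 (92.2%) had it in house controls. At p at most 0.001 the counts were 16 of 16 and 33 of 34. The genes are not independent of each other, and differences of tissue make-up that follow genotype in both treatments enter these shares too.

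No gene had a genotype difference that depended on treatment: 0 of 15622 passed in the edgeR interaction test (0.00% called) and 0 in DESeq2, with 235 and 261 genes at an unadjusted p below 0.05. Of the 138 called genes, 3 had an unadjusted interaction p below 0.05. With 3 mice per group, this does not show that the differences were equal. In the authors' deposited tables of KO against WT, made within each treatment, 76 genes passed an adjusted p of 0.05 in house controls (0.558% of those given an adjusted p) and 122 in trained mice (0.834%). The 138 genes include 41 of the 76 and 60 of the 122, 24 of them in both, and 61 of the 138 are in neither of the authors' deposited lists.

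**Figure D2:**
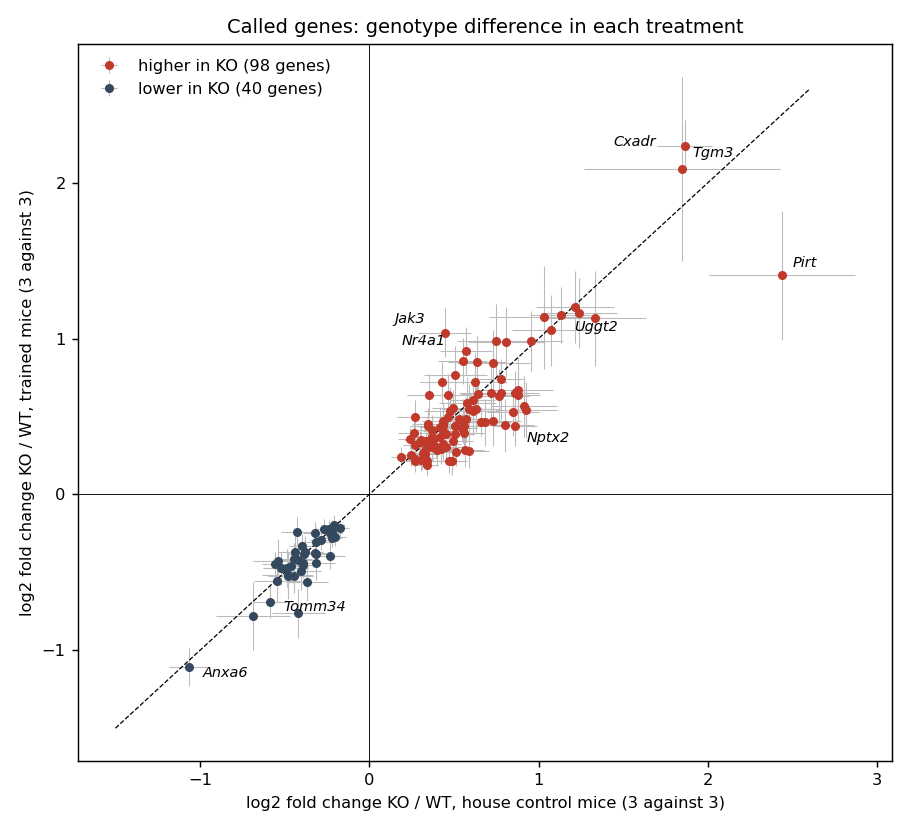
Log2 fold change of KO over WT in trained mice (vertical axis) against that in house control mice (horizontal axis) for the 98 genes higher and the 40 lower in KO. Grey lines are standard errors from the 4-group model and the dashed line marks equal values. All 138 points lie in the upper right or the lower left quadrant. Nptx2, Brdt and Jak3 are the 3 with an unadjusted p below 0.05 for a difference between treatments, and none passed the adjusted test.

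Among receptors and channels, Htr2a, the serotonin receptor 2A, had 11.9, 16.3 and 20.3 CPM in KO libraries, against 7.56, 9.59 and 11.8 CPM in WT libraries (lowest, median and highest of 6 each). Every KO library lay above every WT library, and Htr2a was 1.69-fold higher (log2 fold change 0.76, SE 0.09, adjusted p = 0.00372), by 0.78 in house control and 0.74 in trained mice on the log2 scale. It was the 1 called gene of 39 serotonin, dopamine, noradrenaline and acetylcholine receptors tested (2.56%, against 0.883% over all genes tested). Of the 39, 35 had a positive log2 fold change, with a median of 0.39, against 47.9% positive and a median of -0.01 over all genes tested. The list takes in dopamine receptors. Drd1, a striatal receptor, was 40.8 and 56.5 CPM in replicate 2 of KO house control and of KO trained. It was 7.77 to 12.8 CPM in the other KO libraries and 7.15 to 31.7 CPM in WT libraries. The part of striatal tissue in this lean was not tested. The next smallest p values in this list belonged to Htr1a, at 49.8 CPM in KO and 26.5 CPM in WT libraries (adjusted p = 0.0733), and Htr5a, at 16.5 CPM in KO and 11.4 CPM in WT libraries (adjusted p = 0.0811), neither of which passed.

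Of 126 potassium, calcium, sodium, chloride and HCN channel subunits tested, 5 rose and 0 fell: Cacna1i, a pore-forming subunit of T-type calcium channels, Clcn1, the chloride channel known from skeletal muscle, Kcnq5, a subunit of M-current channels, Kcnab1, a potassium channel beta subunit, and Kcnn1, a small-conductance calcium-activated potassium channel. Their log2 fold changes were Cacna1i (0.87), Clcn1 (1.23), Kcnq5 (0.62), Kcnab1 (0.38) and Kcnn1 (0.34). Cacna1i had 55.0, 93.1 and 128 CPM in KO libraries, against 45.1, 50.4 and 52.9 CPM in WT libraries, and Kcnq5 had 122, 132 and 153 CPM in KO libraries, against 51.0, 93.2 and 114 CPM in WT libraries. In both, the groups did not overlap, with the wider spread in the KO libraries for Cacna1i and in the WT libraries for Kcnq5. Cacna1i was highest in the striatum-rich replicate 2 libraries of KO house control and KO trained. Without both, its log2 fold change was 0.68 (adjusted p = 0.0642), and that of Kcnq5 0.66 (adjusted p = 0.0695). Kcnn1 and Clcn1 also missed the threshold in this fit, with 0.31 (adjusted p = 0.0641) and 1.01 (adjusted p = 0.0562). Clcn1 was low, at 1.42, 2.34 and 4.04 CPM in KO libraries, against 0.883, 0.986 and 1.23 CPM in WT libraries. Its highest value was in KO house control replicate 2. Over the whole list 87 of 126 were positive, with a median of 0.11, and 3.97% were called, against 0.883% over all genes tested. The channel calls were not stable to the libraries used: Kcnn1 and Clcn1 missed the threshold without any 1 of 2 and 4 of the 12 libraries, and Cacna1i, Kcnq5 and Kcnab1 without any 1 of 8, 9 and 10, with adjusted p up to 0.133. The libraries that both Kcnn1 and Clcn1 needed were KO trained replicate 1, without which their adjusted p was 0.0581 and 0.0665, and WT trained replicate 3, without which it was 0.0538 and 0.0717. Clcn1 also needed WT house control replicates 2 and 3 (adjusted p = 0.0532 and 0.0531). CA1 pyramidal neuron markers summed to 545 to 965 CPM in KO libraries and 371 to 740.1 CPM in WT libraries, and their part in the receptor, channel and synaptic differences was not tested beyond the fits given with the marker lists.

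Slc8a1, the sodium/calcium exchanger of the plasma membrane, had 384, 422 and 505 CPM in KO libraries, against 219.9, 291 and 352 CPM in WT libraries, 1.53-fold higher with no overlap (log2 fold change 0.61, SE 0.09, adjusted p = 0.0121). Slc6a7, the brain proline transporter, was 1.66-fold higher at 66.4 ± 7.58 CPM in KO and 40.3 ± 8.50 CPM in WT libraries (mean ± SD, n = 6 each, adjusted p = 0.0307), a call lost without any 1 of 7 of the 12 libraries (adjusted p up to 0.0896). Slc6a7, and every other gene outside the naming rule, was chosen after its values were seen. Glutamate receptor subunits gave 0 calls in 25, 22 of them positive (median log2 fold change 0.21), and GABA-A and glycine receptor subunits gave 0 in 18, with 11 positive. Among the glutamate receptors the smallest p was that of Grin2d, at 19.7 ± 2.83 CPM in KO and 14.7 ± 1.62 CPM in WT libraries (adjusted p = 0.0811).

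The synaptic lists held calls for 1.79% of the presynaptic and 0% of the postsynaptic genes, against 0.883% over all genes tested. Of the 56 presynaptic genes, 41 were positive (median log2 fold change 0.15). Among 56 presynaptic vesicle and release genes, 1 passed, Unc13b, which encodes the vesicle priming protein Munc13-2, at 41.7 ± 2.03 CPM in KO and 35.1 ± 2.24 CPM in WT libraries (1.19-fold higher, adjusted p = 0.0290). Unc13b missed the threshold without any 1 of 7 of the 12 libraries, with adjusted p up to 0.0823. Of 49 postsynaptic scaffold and adhesion genes 0 passed, 42 of them positive (median log2 fold change 0.15), and Sorcs3 had the smallest p at 52.9 ± 11.1 CPM in KO and 36.7 ± 5.18 CPM in WT libraries (adjusted p = 0.0826). In the other direction, Tprgl, a presynaptic vesicle-associated protein also called Mover, had 123, 130.1 and 139 CPM in KO libraries, against 155, 160.1 and 165 CPM in WT libraries, 1.22-fold lower with no overlap (log2 fold change -0.29, SE 0.04, adjusted p = 0.0121). Ppfia1, or liprin-alpha-1, a scaffold of adhesion and release sites, was 1.18-fold lower (adjusted p = 0.0230) with overlapping groups, and its call was lost without any 1 of 7 of the 12 libraries (adjusted p up to 0.0717).

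Activity-regulated transcripts were higher in KO for 3 genes. Nr4a1, an immediate early orphan nuclear receptor, was the 1 call of 34 rapid genes, at 37.2, 55.2 and 93.9 CPM in KO libraries, against 24.4, 34.0 and 45.3 CPM in WT libraries. The groups overlapped, and KO trained mice held the highest values (log2 fold change 0.57 in house control and 0.92 in trained mice). Without WT trained replicate 3 the adjusted p was 0.0589, against 0.0161 with all libraries. Among 34 delayed activity-induced genes 2 passed, Nptx2, a secreted pentraxin that gathers AMPA receptors, at 64.1, 71.7 and 83.3 CPM in KO libraries, against 36.0, 47.5 and 61.9 CPM in WT libraries (log2 fold change 0.65, SE 0.11, adjusted p = 0.0218), and Rasl11b, below. The adjusted p of Nptx2 was above 0.05 without KO trained replicate 1, WT house control replicate 2 or WT trained replicate 3, up to 0.0685. Crtc2, a coactivator of CREB, moved the other way, at 13.4, 15.8 and 18.4 CPM in KO libraries, against 21.4, 22.1 and 23.9 CPM in WT libraries, 1.41-fold lower with no overlap (log2 fold change -0.50, SE 0.07, adjusted p = 0.0121).

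Cyclic nucleotide signalling showed calls in both directions. Pde1a, a phosphodiesterase activated by calcium and calmodulin (chromosome 2, 79834453 to 80129458), had 165, 187 and 236 CPM in KO libraries, against 81.9, 117 and 161 CPM in WT libraries. The groups did not overlap, although the highest WT library came within 5 CPM of the lowest KO library, and Pde1a was 1.69-fold higher (log2 fold change 0.76, SE 0.10, adjusted p = 0.00624). It was the 1 call of 29 phosphodiesterases and adenylyl cyclases tested, of which 19 were positive. Prkar1a, the type I alpha regulatory subunit of protein kinase A, had 537, 566 and 599 CPM in KO libraries, against 653, 734 and 779 CPM in WT libraries, 1.27-fold lower with no overlap (adjusted p = 0.0161). Its adjusted p was above 0.05 without KO trained replicate 1 or WT trained replicate 3, up to 0.0538. Gskip, a small protein that binds both protein kinase A and GSK3-beta, is described with the Wnt genes.

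Of 40 genes of the beta-catenin destruction complex and the Wnt pathway, 1 rose and 1 fell. Apc, the scaffold of the destruction complex, had 518, 557 and 602 CPM in KO libraries, against 348, 398 and 449 CPM in WT libraries, 1.40-fold higher with no overlap (log2 fold change 0.49, SE 0.06, adjusted p = 0.00624). Gskip (chromosome 12, 105684829 to 105703023) had 18.3, 22.9 and 23.7 CPM in KO libraries, against 28.1, 31.0 and 32.5 CPM in WT libraries, 1.42-fold lower with no overlap (log2 fold change -0.50, SE 0.06, adjusted p = 0.00299). Of the exon bases of Gskip, 11.1% are shared with Atg2b. Of the 40, 16 were positive and the median was -0.06. Axin2, a transcript induced by Wnt signalling, was at 24.6 CPM in KO and 28.6 CPM in WT libraries (adjusted p = 0.179). Spata13, a Rac and Cdc42 exchange factor that binds the APC protein, was 1.46-fold lower at 22.0, 26.0 and 31.0 CPM in KO libraries, against 31.6, 38.4 and 43.5 CPM in WT libraries. Its adjusted p of 0.0211 was above 0.05 without KO trained replicate 1 or WT house control replicate 2, up to 0.0623.

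Regulators of small GTPases were on both sides. Arhgap33, a GTPase activating protein enriched in neurons (chromosome 7, 30522226 to 30535060), was higher, and Spata13, described above, lower. Arhgap33 had 113, 174 and 228 CPM in KO libraries, against 67.1, 76.4 and 89.0 CPM in WT libraries, 2.31-fold higher with no overlap, and its KO values varied more than its WT values (178 ± 42.5 CPM in KO and 77.0 ± 9.61 CPM in WT libraries, mean ± SD, n = 6 each). Its highest values, 228 and 222 CPM, were in the striatum-rich replicate 2 libraries of KO house control and KO trained, against 113 to 176 CPM in the other KO libraries, and without both its log2 fold change was 1.01 (adjusted p = 0.0165). Rasal1, a calcium-dependent Ras GTPase activating protein, had 81.1, 103 and 107 CPM in KO libraries, against 42.1, 63.7 and 73.8 CPM in WT libraries (log2 fold change 0.75, SE 0.10, adjusted p = 0.00916), with no overlap. Rasl11b, a small Ras-like protein, had 55.7, 63.3 and 78.3 CPM in KO libraries, against 33.7, 42.3 and 59.0 CPM in WT libraries, with overlap: within each genotype, every trained library lay above every house control library, and the model compares genotypes with that difference set aside (log2 fold change 0.56, SE 0.07, adjusted p = 0.00588). The actin regulator Limk1 and the GDP dissociation inhibitor Arhgdig were 1.49-fold and 1.5-fold higher (adjusted p = 0.0305 and 0.0230), and these calls were lost without any 1 of 5 and 3 of the 12 libraries (adjusted p up to 0.0936 and 0.0727). Limk1 was also highest in those replicate 2 libraries, and its log2 fold change was 0.42 without both (adjusted p = 0.0247), against 0.57 with them.

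Enzymes that attach sugars and lipids, and several regulatory proteins, were also on the higher side. Galnt9, a brain N-acetylgalactosaminyltransferase that starts mucin-type O-glycans (chromosome 5, 110544355 to 110621380), had 92.0, 108 and 136 CPM in KO libraries, against 56.8, 71.7 and 89.6 CPM in WT libraries, 1.56-fold higher with no overlap (log2 fold change 0.64, SE 0.07, adjusted p = 0.00299), by 0.64 in house control and 0.64 in trained mice. B3gat3, the glucuronyltransferase that completes the linker of proteoglycan chains, had 126, 138 and 146 CPM in KO libraries, against 98.4, 107 and 120.0 CPM in WT libraries (1.27-fold higher, adjusted p = 0.0121). Nmt2, an N-myristoyltransferase, had 95.6, 102 and 110.5 CPM in KO libraries, against 78.6, 86.6 and 93.0 CPM in WT libraries (1.19-fold higher, adjusted p = 0.0109). These 3 groups of values did not overlap, and for Nmt2 the difference was small but larger than the spread within each genotype. Mgrn1, a ubiquitin ligase, and Ppp2r5b, a regulatory subunit of protein phosphatase 2A, were 1.29-fold and 1.21-fold higher, and Cpne7, a calcium-dependent membrane-binding copine, was 2.09-fold higher at 66.3 ± 15.5 CPM in KO and 31.7 ± 6.39 CPM in WT libraries. Myo16, an unconventional myosin of neurons, was 1.41-fold higher at 21.5 ± 1.82 CPM in KO and 15.2 ± 1.04 CPM in WT libraries. All 7 of these genes kept an adjusted p below 0.05 without any 1 library.

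Genes of the endoplasmic reticulum and Golgi were called in both directions, and as no list of them was used they are given without a count. Uggt2, Galnt9, Clgn, a chaperone, and Gnptab, a phosphotransferase of lysosomal sorting, were higher, the last 2 with log2 fold changes of 0.42 and 0.26 (adjusted p = 0.0428 and 0.0361). Lower were Sdf4, Ssr1, Spcs1 and the Golgi SNARE Gosr2, the last with -0.24 (adjusted p = 0.0305). The Clgn, Gnptab and Gosr2 calls were lost without any 1 of 10, 9 and 10 of the 12 libraries (adjusted p up to 0.130, 0.0936 and 0.0936). Sdf4, the calcium-binding Golgi protein Cab45, had 167, 185 and 194 CPM in KO libraries, against 228, 246 and 261 CPM in WT libraries, 1.33-fold lower with no overlap (log2 fold change -0.42, SE 0.06, adjusted p = 0.00915). Ssr1, a subunit of the translocon-associated protein complex, had 164, 164 and 172 CPM in KO libraries, against 189.9, 195 and 199 CPM in WT libraries, and the narrow groups did not overlap (1.17-fold lower, adjusted p = 0.0165). Spcs1, a signal peptidase subunit, was 1.22-fold lower (adjusted p = 0.0230), and 19.5% of its exon bases are shared with Glt8d1. Ssr1 missed the threshold without KO trained replicate 1 or WT trained replicate 3 (adjusted p up to 0.0612), and Spcs1 without any 1 of 9 of the 12 libraries (up to 0.0723).

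Named lower transcripts included Tomm34, Fundc2 and Isca1, whose proteins act in or at mitochondria. Fundc2, an outer membrane protein, had 34.8, 38.3 and 41.1 CPM in KO libraries, against 44.6, 49.3 and 52.7 CPM in WT libraries (1.29-fold lower, adjusted p = 0.0121), and Isca1, an iron-sulfur cluster assembly factor, had 84.5, 86.9 and 91.0 CPM in KO libraries, against 96.2, 106 and 108 CPM in WT libraries (1.19-fold lower, adjusted p = 0.0161). Neither pair of groups overlapped, and Isca1 missed the threshold without KO trained replicate 1 or WT trained replicate 3, with adjusted p up to 0.0612. Tomm34, a cytosolic cochaperone of mitochondrial import, was the 1 called gene of 31 import genes, at 61.0, 67.2 and 78.6 CPM in KO libraries, against 88.1, 109 and 119 CPM in WT libraries (log2 fold change -0.64, SE 0.07, adjusted p = 0.00299). Of 79 nuclear-encoded oxidative phosphorylation subunits 0 passed, 16 were positive and the median was -0.04, and Sdha had the smallest p of the list at 361 ± 5.67 CPM in KO and 398 ± 10.8 CPM in WT libraries (adjusted p = 0.131).

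Also lower were 3 transcripts, for 2 RNA-modifying enzymes and 1 kinase: Alkbh5, a demethylase of N6-methyladenosine, at 80.9, 86.5 and 88.5 CPM in KO libraries, against 95.5, 103 and 104 CPM in WT libraries, Rpusd1, a pseudouridine synthase family member, at 24.6, 29.9 and 31.8 CPM in KO libraries, against 33.3, 42.5 and 48.2 CPM in WT libraries, and Csnk1d, casein kinase 1 delta, at 129, 140.3 and 154 CPM in KO libraries, against 158, 179.6 and 185 CPM in WT libraries. The groups did not overlap in any of the 3, and the changes were 1.17-fold, 1.42-fold and 1.24-fold lower (adjusted p = 0.0230, 0.0165 and 0.0465). Csnk1d was the 1 called gene of 16 with exons known to be spliced by muscleblind proteins in brain, and its call was lost without any 1 of 11 of the 12 libraries (adjusted p up to 0.131). The Alkbh5 call was lost without any 1 of 8 (up to 0.0727) and the Rpusd1 call without KO trained replicate 1 (0.0593). Of 55 splicing regulators 0 passed, with 16 positive and a median of -0.07, and of 80 cytosolic ribosomal protein genes 0 passed, with 9 positive and a median of -0.08. Khdrbs3, a splicing regulator, was at 206 ± 19.3 CPM in KO and 166 ± 28.5 CPM in WT libraries (adjusted p = 0.0805), and Rplp0 at 94.8 ± 14.0 CPM in KO and 116 ± 12.6 CPM in WT libraries (adjusted p = 0.0726).

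Other lower transcripts separated the genotypes as cleanly. Scrn3, a secernin, had 25.9, 28.4 and 30.3 CPM in KO libraries, against 33.3, 36.2 and 38.9 CPM in WT libraries (1.27-fold lower, adjusted p = 0.00518). Flywch1, a zinc finger protein, had 125, 137 and 150.1 CPM in KO libraries, against 167, 183 and 197 CPM in WT libraries (1.34-fold lower, adjusted p = 0.0110). Cfap97, a cilium-associated protein, and Zfp280b, a zinc finger protein, were 1.31-fold and 1.40-fold lower (adjusted p = 0.0161 each). None of these 4 had overlapping groups, and Zfp280b alone among them missed the threshold when a library was left out, WT trained replicate 3, with an adjusted p of 0.0538. The collagen and laminin list had 1 call in 64, Bmp1, the procollagen C-proteinase, 1.51-fold lower at 40.8 ± 6.76 CPM in KO and 61.6 ± 7.04 CPM in WT libraries and lost without any 1 of 10 libraries (adjusted p up to 0.115). The list of annexins and S100 proteins had 1 call in 18, Anxa6, a calcium-dependent membrane-binding protein, at 59.1, 70.9 and 76.0 CPM in KO libraries, against 131, 146 and 173 CPM in WT libraries.

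Some lists leaned to one sign with 0 calls. Of 24 cholesterol biosynthesis genes 23 had a positive log2 fold change, with a median of 0.14, and the sign of the median was the same in house control (0.09) and trained mice (0.17). Srebf2, the transcription factor of sterol synthesis, had 309, 336 and 356 CPM in KO libraries, against 245, 293 and 309 CPM in WT libraries (adjusted p = 0.0731). The groups nearly touched, at 309.2 CPM in the lowest KO and 308.7 CPM in the highest WT library. Hmgcs1, an early enzyme of the pathway, was at 309 CPM in KO libraries, against 259 CPM in WT libraries (adjusted p = 0.0805). None of these values passed the test over all genes, and the list counts are descriptions. Of 21 calcium/calmodulin-dependent kinase, calcineurin and calmodulin genes 0 passed and 15 were positive, with Camk2n2, an inhibitor of CaMKII, at 64.2 ± 8.72 CPM in KO and 51.1 ± 3.05 CPM in WT libraries (adjusted p = 0.0811). Cxadr was the 1 call of 24 junction adhesion genes, with 9 positive, and Rpusd1 the 1 call of 40 pseudouridine synthase and tRNA modification genes, with 12 positive.

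**Figure D3:**
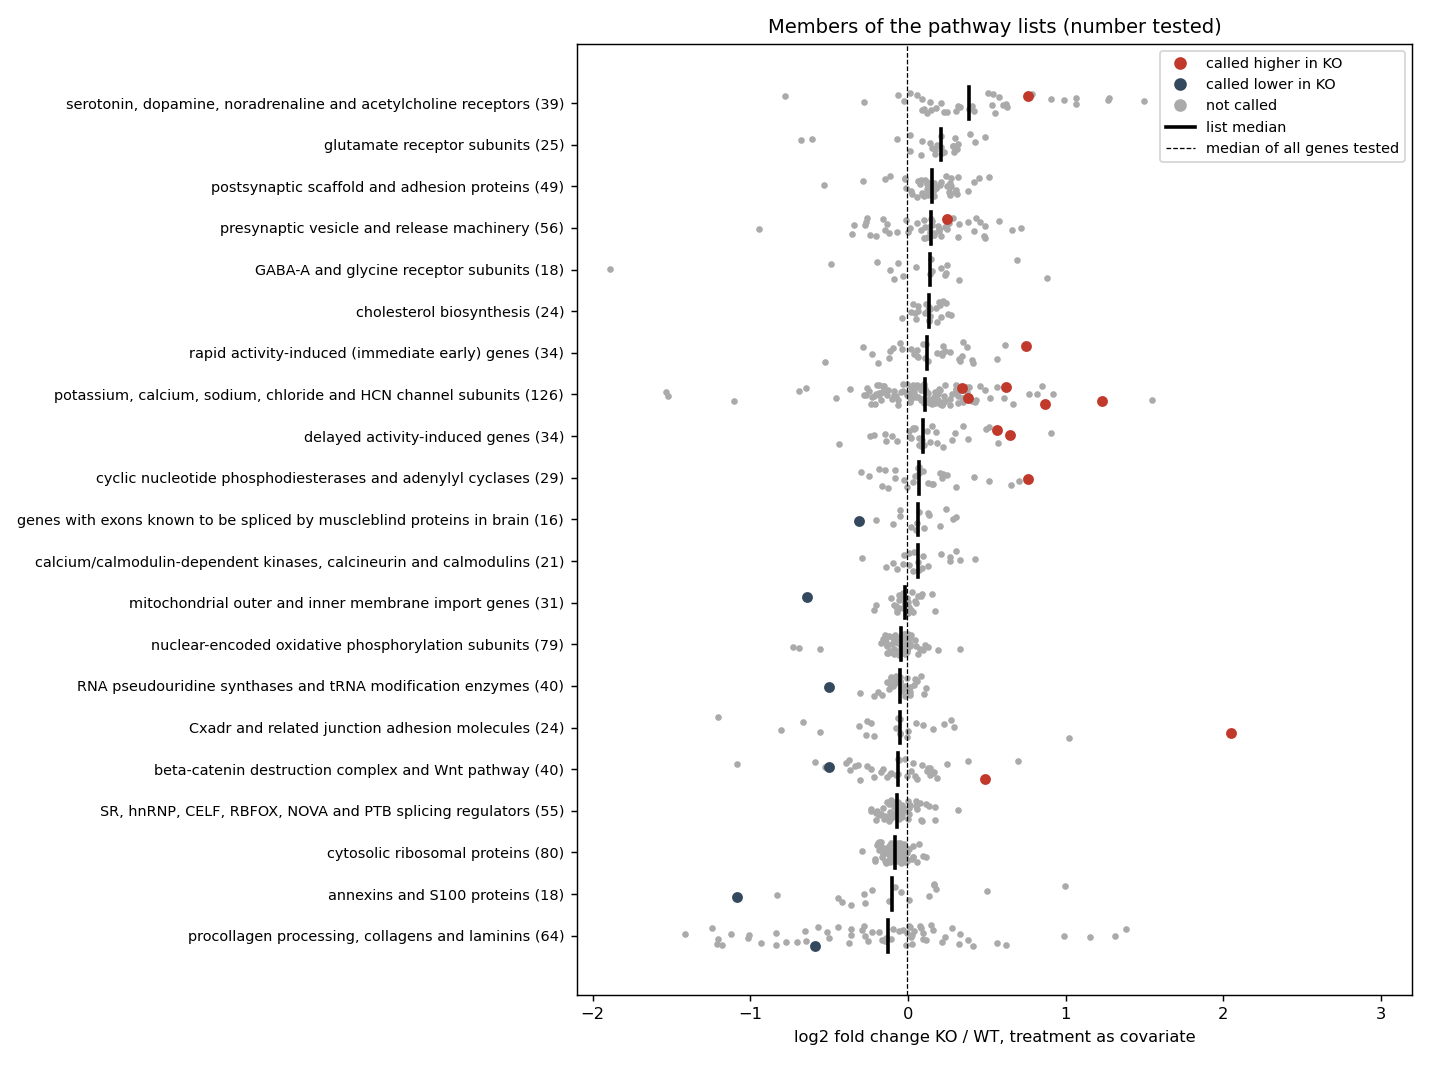
Log2 fold change of KO over WT, with treatment as a covariate, for each tested member of the pathway lists, ordered by the list's median (thick bar). Red points are genes called higher, blue points genes called lower, grey points genes not called, and the dashed line is the median of all genes tested. Receptor and synaptic lists lie to the right of the dashed line and ribosomal, splicing and collagen lists to its left, and no list holds more than 5 called genes. Some of these shifts were mostly in house controls. The presynaptic median was 0.25 in house control and 0.03 in trained mice, and the collagen and laminin median -0.20 and -0.02.

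Near Mbnl2 on chromosome 14 lie Uggt2 and Dzip1, 1.31 and 1.45 Mb from it toward the start of the chromosome, between gene midpoints. Uggt2, a glucosyltransferase of glycoprotein folding control (chromosome 14, 118985039 to 119099430), had 35.7, 52.4 and 58.1 CPM in KO libraries, against 21.4, 22.1 and 23.8 CPM in WT libraries, 2.20-fold higher (log2 fold change 1.14, SE 0.12, adjusted p = 0.00299). Dzip1, a zinc finger protein of ciliogenesis and Hedgehog signalling (chromosome 14, 118875520 to 118925460), had 85.2, 114 and 137 CPM in KO libraries, against 47.2, 59.0 and 63.4 CPM in WT libraries, 1.96-fold higher (log2 fold change 0.97, SE 0.13, adjusted p = 0.00915). No KO value of either gene fell within the WT range, and 32.2% of the exon bases of Dzip1 are shared with the predicted gene Gm49179. They were 2 of 16 tested genes within 2 Mb of Mbnl2 (12.5%), 2 of 32 within 5 Mb (6.25%), and with Commd6 3 of 55 within 20 Mb (5.46%), against 0.883% over all genes. Chromosome 14, with Mbnl2 itself counted, had 9 calls in 535 genes (1.68%), 6 higher and 3 lower. This was the highest share of any chromosome, and chromosome 9 had the lowest, with 3 in 866 (0.346%). The labels do not give the strain in which the allele was made, and the part of its flanking DNA in these differences was not tested.

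The called genes also differed in gene structure, as a description. Their median level was 52.6 CPM, against 20.1 CPM over all genes tested, and the part of level in these differences was not tested. By the GENCODE annotation of build GRCm38, the median span was 53.6 kb for the 98 higher genes and 21.4 kb for the 38 matched of the 40 lower genes, against 24.4 kb for all matched genes tested. The 3′UTR of each gene was that of its longest protein-coding transcript. The median 3′UTR was 1.38 kb for the higher and 1.94 kb for the lower genes, against 1.15 kb for all. The 4 motifs shown above occurred at a median of 12.3 per kb of 3′UTR in the higher and 16.0 per kb in the lower genes, against 12.5 per kb in all. Of 136 matched called genes, 10 share at least 10% of their exon bases with another gene, among them Jakmip1, Smarcd3 and Gng3, so their counts are uncertain because the strand setting is not known.

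Some marker lists of hippocampal fields and neighbouring tissue leaned to one sign. Others were mixed, with 7 of 24 thalamus, 14 of 21 neocortex and 12 of 16 CA3 and CA2 markers positive. The summed level of 11 CA1 pyramidal neuron markers was 545 to 965 CPM in KO libraries and 371 to 740.1 CPM in WT libraries, and 10 of the 11 were positive. The sum of 19 dentate granule neuron markers was 1281 to 2538 CPM in KO and 1809 to 3428 CPM in WT libraries, and 0 of the 19 were positive. All 24 choroid plexus and 19 of 20 leptomeningeal markers were negative, with sums of 275 to 6969.7 CPM in KO against 197 to 23675 CPM in WT, and 346 to 899 CPM in KO against 303 to 2388 CPM in WT. Striatum and septum markers were positive in 18 of 20, with 386 to 1833 CPM in KO and 335 to 1275 CPM in WT libraries. The leans differed in size between treatments. Median log2 fold changes in house control and trained mice were -1.96 and -0.66 for choroid plexus and -1.34 and -0.17 for leptomeninges. They were 0.17 and 1.79 for striatum and septum, 0.45 and 0.76 for CA1, and -0.33 and -0.49 for dentate granule neurons. No marker was called, the ranges overlapped in every list, and of the 15 lists only that for blood had members at 0 in every library (2 of 10).

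**Figure D4:**
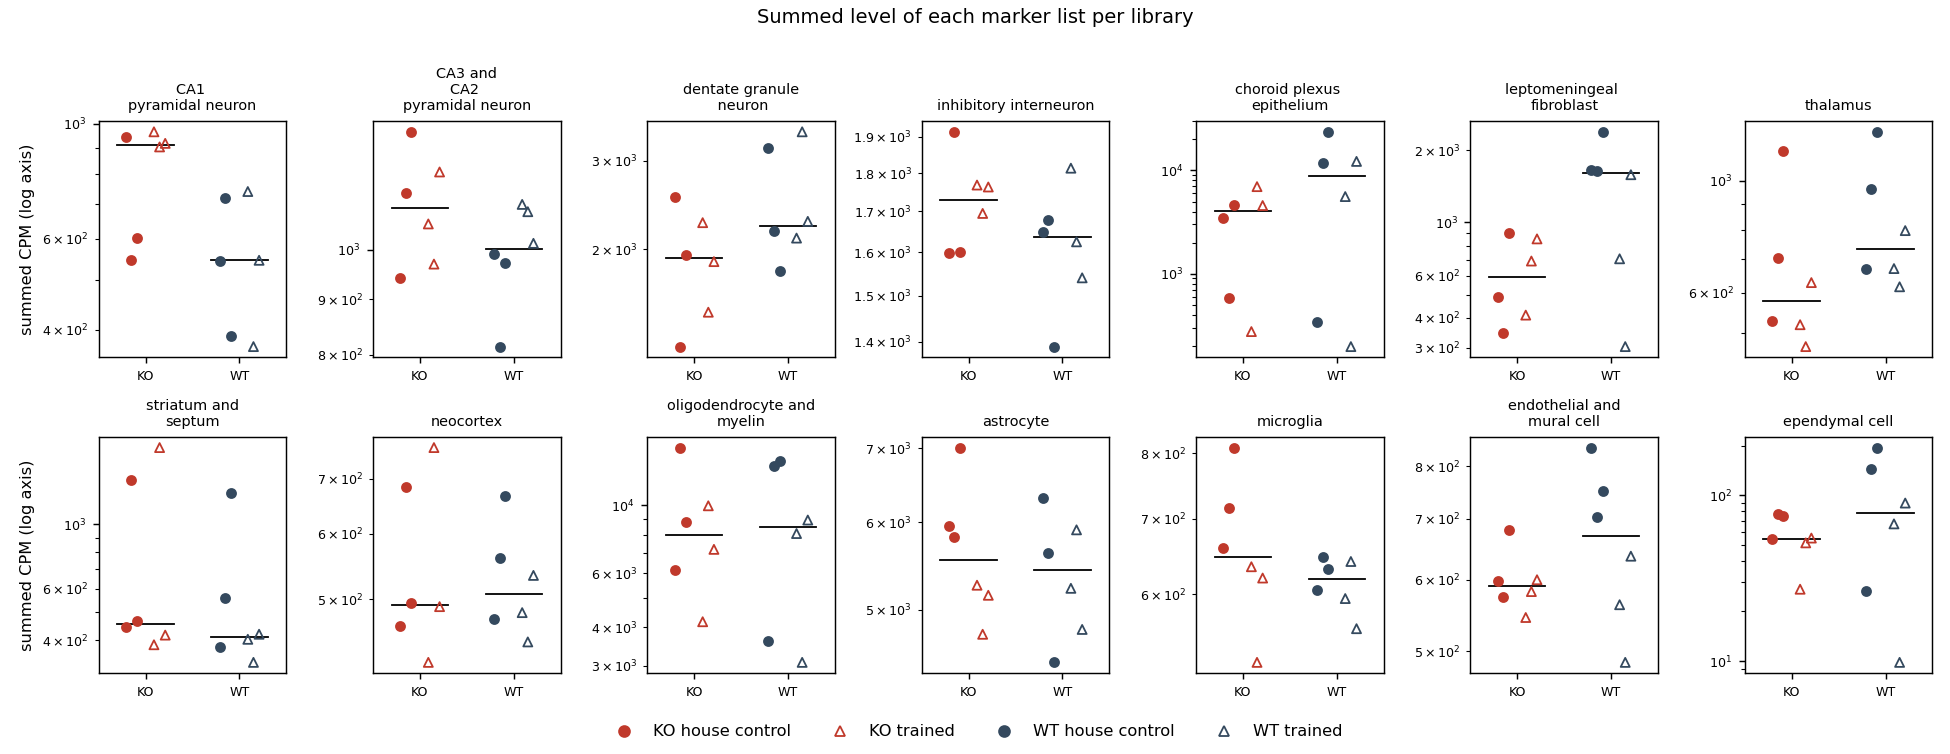
Summed CPM of each marker list in each KO and WT library, on log axes, with a line at the median of 6. Filled circles are house control and open triangles trained mice. KO medians are higher for CA1 markers (909.9 against 544.7 CPM in WT) and lower for choroid plexus (4030.1 against 8752 CPM) and leptomeningeal markers (590.3 against 1613 CPM), and the ranges overlap in every panel.

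With a marker list's mean level as a further covariate, the number of calls moved far more than the sizes of the differences. With dentate markers 872 genes were higher and 678 lower, and 136 of the 138 were still called. With CA1 markers 1 was higher, Cxadr (adjusted p = 0.00238), and 1 lower, Anxa6 (0.00886). With leptomeningeal markers 13 were higher and 17 lower, and 28 of the 138 were still called. In each of these fits all 138 genes kept their sign. With CA1 markers the log2 fold changes of 135 of the 138 stayed within 1.5 times the value above, for instance 1.12 for Uggt2 (adjusted p = 0.0597), 1.29 for Arhgap33 (0.0770) and 0.57 for Apc (0.0518). The CA1 sum was itself mostly higher in KO libraries, so genotype and CA1 level cannot be told apart for the genes that lost the call. Leptomeningeal sums had a median of 590.3 CPM in KO and 1613 CPM in WT libraries, and the same holds for calls lost with that covariate. 

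The calls also depended on the libraries used. Without the KO replicate 2 libraries of both treatments, 57 genes were higher and 22 lower, 52 of the 138 were still called, and all 138 kept their sign. Of the 138, 31 (20 higher and 11 lower) kept an adjusted p below 0.05 whichever library was left out, and 107 lost it without at least 1. Without KO trained replicate 1, 23 genes were higher and 13 lower, and without WT trained replicate 3, 22 and 14. The counts were also more than 1.5 times smaller in at least 1 direction without KO house control replicate 1 (57 and 36) or 2 (52 and 21), KO trained replicate 3 (56 and 18), WT house control replicate 2 (42 and 18) or 3 (49 and 24), or WT trained replicate 1 (95 and 25) or 2 (58 and 25). All 138 kept their sign, and their log2 fold changes stayed within 1.5 times, in each of these fits. Animal and library numbers fall into a first series of 8 and a second of 4 libraries. In the first series alone 4 genes were higher, Cxadr, Uggt2, Dzip1 and Arhgap33, and 0 lower, all 138 kept their sign, and Anxa6 had a log2 fold change of -1.10 (adjusted p = 0.0754). The second series alone, with 1 library per group and 1 residual degree of freedom, gave 26 higher and 88 lower genes. It called 10 of the 138, among them Cxadr, Uggt2, Dzip1 and Anxa6 (adjusted p = 0.0302, 0.0415, 0.0302 and 0.0302), and all 138 kept their sign. A model with the series as a further term called 183 higher and 86 lower genes, and these include all 138.

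**Figure D5:**
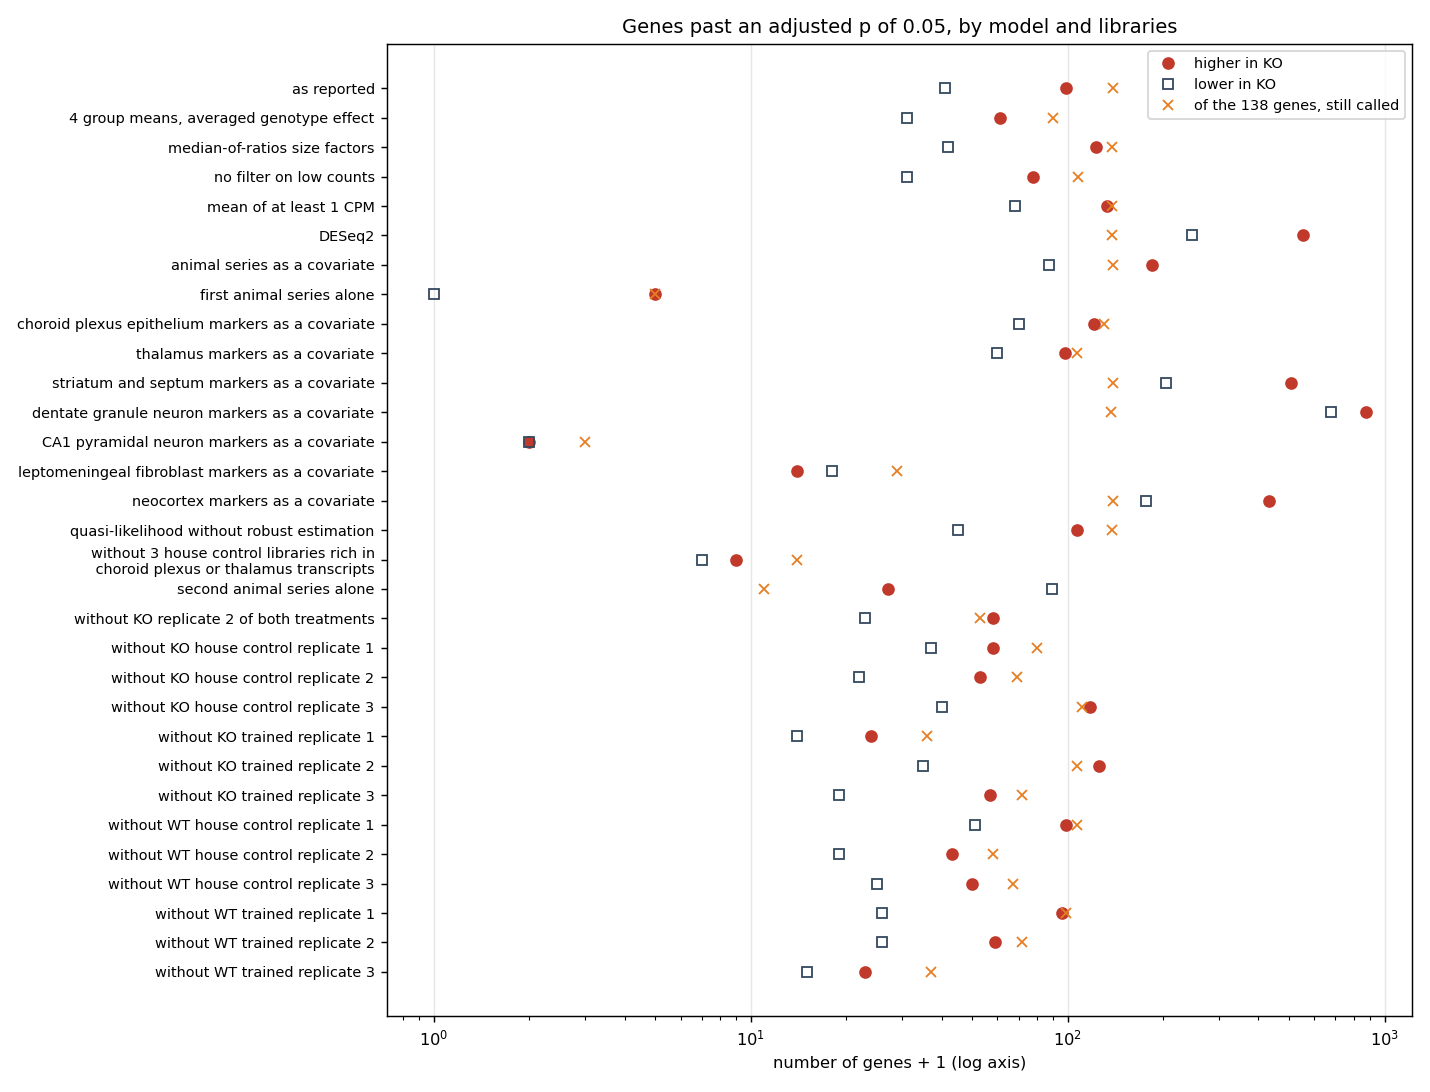
Number of genes higher (red circles) and lower (open squares) in KO past an adjusted p of 0.05, and how many of the 138 genes were still called (crosses), for each model and set of libraries, on a log axis of the number plus 1. The 98 and 40 of the model reported lie between 872 and 678 with dentate markers as a covariate and 1 and 1 with CA1 markers.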

How the data were processed

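RNA of the dorsal hippocampus of 12 mice was sequenced after polyA selection, with NEBNext Ultra II libraries, per the labels' protocols. The authors deposited, for each library, the raw count of reads of 24421 gene symbols. Build mm10 and the tools HTSeq 0.9.1, DESeq2 1.18.1, TopHat2 2.1.1, Bowtie2 2.3.4.2 and cutadapt 1.18 are listed in the submitters' processing notes. Whether counting used strand is not given in these sources, so overlapping and antisense genes are uncertain. For KO against WT within each treatment the authors deposited a further table which has, per the file headers, p-values, the log2 fold change with a standard error and a test score, and a signal column, the mean of normalized counts. The adjusted p-values of these tables by the authors were used.

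From these counts edgeR 4.0.16 in R 4.3.3 was used on 15622 genes, those that passed filterByExpr with its minimum count of 10 and total of 15, after TMM scaling. The quasi-likelihood model, with robust estimation, had treatment and genotype as terms and 9 residual degrees of freedom, and adjusted p-values (Benjamini-Hochberg) cover every gene tested. Standard errors were taken as the log2 fold change over the root of its F statistic. Differences between treatments came from a model with 4 group means. No libraries of a group were identical (chi-square per degree of freedom 14.9 to 105). Replicate numbers follow accession order. Counting floors cover counting error only. The p-values rest on the spread between these mice, estimated with information shared over genes.

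Genes named were Mbnl1, Mbnl2 and Mbnl3, the 18 higher and 18 lower with the smallest p (same sign in both treatments, mean of at least 1 CPM, unnamed genes left out), and in each list the called members or the one with the smallest p. Others were chosen after their values were seen, and some results are not reported here. The members and lists were chosen with earlier results of these data known. Coordinates and 3′UTRs are from GENCODE vM21 on GRCm38, the same build as mm10, which matched 96.3% of tested symbols. Tested on simulated counts over 15456 genes, the comparison of KO with WT found 43.3% of the genes set to differ 1.5-fold, 77.6% of those set to 2-fold and 95.5% of those set to 4-fold, with 6 unchanged genes among 150 calls. The simulated counts were drawn gene by gene, without shared differences of tissue make-up between libraries. Only genes with a mean of at least 1 CPM were set to differ. These shares need not hold in the real libraries. Alternatives were DESeq2 1.42.0, other scaling and filters, covariates and left-out libraries.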

Additional observations from a re-analysis of the deposited data

Results flagged for a closer look

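Among 140 groups of 6 values looked at (55 named genes and 15 marker sums, in each genotype), 4 had a library far from the other 5 by Dixon's criterion, and chance flags about 1 in 20, or 7.0 of 140. Rasal1 was 81.1 CPM in KO house control replicate 3, below the 99.5 to 107 CPM of the other KO libraries and above every WT library. Ssr1 was 172 CPM in KO house control replicate 2, above the 164 to 167 CPM of the others and below every WT library. Thalamus markers summed to 1145 CPM in KO house control replicate 3, against 469 to 702 CPM in the other KO libraries. Striatum and septum markers summed to 1275 CPM in WT house control replicate 3, against 335 to 556 CPM in the other WT libraries. Among KO libraries these markers were further out, at 1419.6 and 1833 CPM in replicate 2 of house control and of trained mice against 386 to 465 CPM, but Dixon's criterion, which looks at 1 library at a time, did not mark the pair, and without both 57 genes were higher and 22 lower. Without KO house control replicate 3, 117 genes were higher and 39 lower, and without WT house control replicate 3, 49 and 24.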

How the results depend on the processing

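In all alternatives the 138 genes kept their sign, except that Tgm3 was not tested with a filter at a mean of 1 CPM. The number of calls moved. Higher genes numbered 60 with 4 group means, 57 without KO replicate 2 of both treatments and 8 without a set of 3 libraries (KO house control 3, WT house control 2 and 3) chosen for their choroid plexus or thalamus markers, and lower genes 22 and 6 in the last 2. DESeq2 gave 550 higher and 246 lower, the animal series as a covariate 183 and 86, the first series alone 4 and 0, and the second alone 26 and 88. Marker covariates gave 506 and 203 (striatum and septum), 431 and 176 (neocortex), 872 and 678 (dentate), 13 and 17 (leptomeninges) and 1 and 1 (CA1). Lower genes numbered 69 with choroid plexus markers and 67 at a mean of at least 1 CPM. The covariates for dentate, CA1, leptomeninges and neocortex, the second series and the 2 sets of left-out libraries were chosen after seeing the data, and the cause of these moves was not tested. With median-of-ratios scaling, no filter, thalamus markers or no robust estimation, both counts stayed within 1.5 times. Leaving out 1 library at a time gave 22 to 125 higher, 13 to 50 lower and 0 genes whose genotype difference depended on treatment, and every other alternative also gave 0 (the second series alone, with no residual for that test, was not run). For single genes, 1597 of 4437 values lost the call, 24 gained it and 0 reversed. Depth limits genes with few counts, such as Mbnl3 with 0 to 36 per library. No paired analysis was possible because the replicate numbers only follow the order of accessions.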

Other observations

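Some gene families with 2 or more calls were put together after the called genes had been seen, so their counts are descriptions. Over all genes tested, 0.883% were called. On the higher side, 2 of 17 GalNAc transferases that start mucin-type O-glycans were called, with log2 fold changes of Galnt9 (0.64) and Galntl6 (0.89), 2 of 19 sialyltransferases, St6gal2 (0.79) and St8sia3 (0.29), and 2 of 26 enzymes of heparan sulfate and its linker, B3gat3 (0.35) and Ext1 (0.37). Eph receptors, which guide axons and spines, gave 2 of 14, Epha10 (0.74) and Ephb3 (0.51). Protein phosphatase 2A subunits gave 2 of 16, Ppp2r5b (0.28) and Ppp2r2b (0.39), with 14 of 16 positive. Ras GTPase activating proteins and Ras-like proteins gave 3 of 14, Rasal1 (0.75), Rasl11b (0.56) and Dab2ip (0.39). The calls of Galntl6, St6gal2, St8sia3, Ext1, Epha10, Ephb3 and Dab2ip were each lost in leaving out at least 4 of the 12 libraries, 1 at a time, with adjusted p up to 0.132.

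Members of 1 family were also called in opposite directions. Of 3 secernins, Scrn1 was 1.18-fold higher at 109 ± 6.07 CPM in KO and 92.3 ± 3.60 CPM in WT libraries and Scrn3 1.27-fold lower. Of 21 DHHC palmitoyltransferases, which attach palmitate to synaptic and other proteins, Zdhhc2 and Zdhhc14 were 1.48-fold and 1.22-fold higher and Zdhhc4 1.32-fold lower. The Scrn1, Zdhhc2, Zdhhc14 and Zdhhc4 calls were lost without any 1 of 10, 10, 10 and 6 libraries. Of 36 core histone genes tested, 34 were negative, with a median log2 fold change of -0.39, and 1 was called, Hist1h2be, 1.66-fold lower at 4.83 ± 0.834 CPM in KO and 8.02 ± 1.31 CPM in WT libraries and lost without any 1 of 10 libraries. Single calls in families that were put together in the same way were Prkar1a of 6 protein kinase A subunits, Psma3 of 38 proteasome subunits, Dgkb of 10 diacylglycerol kinases, Zfp280b of 346 Zfp genes and, in a family with 2, Ssr1 and Spcs1 of 15 translocon and signal peptidase genes. Histone transcripts mostly lack a polyA tail, so their level in polyA-selected libraries also depends on the selection, and its part was not tested.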
